A study of Mus musculus with 51 samples.

Results

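Histone deacetylases remove acetyl groups from histone tails and other proteins, and inhibitors of these enzymes raise acetylation and alter the transcription of many genes in both directions. In mouse cells made to reprogram with c-Myc, Oct4, Sox2 and Klf4, F-class cells are a proliferating state that depends on continued factor expression and does not form compact colonies like those of embryonic stem (ES) cells, whereas C-class cells lie closer to ES cells. Among the genes that such inhibitors are best known for are the cell cycle inhibitor Cdkn1a, the metallothioneins and histone genes. The 4 arrays described here are F-class cells after 24 h of a histone deacetylase inhibitor (HDACi), replicates 1 and 2, and at 0 h of it, replicates 1 and 2, out of 51 Illumina beadarrays in the series. They were chosen by their labels alone.

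The cells of all 4 arrays carry the strain label rtTA Mouse, in which a doxycycline-responsive activator drives the factors. The labels name neither the inhibitor nor its dose, and they do not give the clone, the treatment of the 0 h cells or whether replicates came from separate cultures. The p-values therefore speak to how far these arrays scatter and no further, scatter that may be technical, and 2 arrays per group limit the precision. A pair of arrays at 48 h of HDACi entered the fit to share its estimate of the spread, for 6 arrays in all, and the Tet-Myc arrays of the series were left out of it. Each array reports the brightness of beads carrying 1 probe, and a level below is the normalized log2 intensity of a gene's brightest probe. Differences are 24 h minus 0 h on that log2 scale, so 1 is a doubling, and a gene is called where limma's Benjamini-Hochberg adjusted p was under 0.05.

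On the 24 h arrays 48.4% and 50.1% of probes were detected above background (detection p under 0.05), against 51.3% on each 0 h array. Pearson correlations over 9593 genes were 0.994 between the 24 h arrays, 0.991 between the 0 h arrays and 0.975 to 0.980 between a 24 h and a 0 h array. The F-class label was set against 13 genes that separate F-class from C-class clones at day 16, a list drawn up in earlier work on these arrays. Of 7 genes higher in F-class clones, 5 stood above the range of the 22 C-class clones on both 24 h arrays and 6 did so on both 0 h arrays. Of 6 genes higher in C-class clones, 4 stood below that range on both 24 h arrays and 4 on both 0 h arrays. The F-class gene Nkx2-3, a homeobox factor, read 12.60 and 12.77 on the 24 h arrays, against 12.63 and 12.81 on the 0 h arrays, 10.72 to 11.92 in the 6 F-class clones and 5.85 to 10.78 in the C-class clones. Of 14 named macrophage markers 4 were detected on at least 1 of the 6 HDACi arrays and 10, including Ptprc and Itgam, on none. The summed intensity of the list was 2409 and 2562 at 24 h, against 3496 and 4143 at 0 h. On the 2 fibroblast arrays it was 904 and 9276. Of 10 endothelial markers 8 were detected on at least 1 of the 6 arrays and 2, Cdh5 and Emcn, on none. The sums were 1047 and 1002 at 24 h, against 1185 and 1237 at 0 h and 1322 and 1747 in fibroblasts. The 16 fibroblast markers summed to 9996 and 11301 at 24 h, against 13394 and 14985 at 0 h and 169658 and 216909 in fibroblasts. Of these markers 11 were detected on at least 1 of the 6 arrays and 5, Col3a1 among them, on none. Single markers called were Laptm5 of the macrophage list (-0.71), Tek of the endothelial list (-0.61) and Vim (0.80) and Dcn (-1.41) of the fibroblast list.

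The 0 h arrays differed from each other more than the 24 h arrays did. Between the 0 h arrays, 89 of the 9593 genes differed by over 2-fold, of which 79 were higher in replicate 1, while 49 genes did so between the 24 h arrays and 98 between the 48 h arrays. By over 4-fold 13 genes differed at 0 h, every one higher in replicate 1, against 0 genes at 24 h and 5 at 48 h. Among the 13 were Dppa5a, Dnmt3l, Esrrb and Dppa3, which are genes of pluripotent cells, and the claudins Cldn4 and Cldn6. Dppa5a, an RNA-binding protein of pluripotent cells, read 10.88 and 10.77 at 24 h, against 13.00 and 6.55 at 0 h, so that its 24 h arrays lay between the 0 h arrays. It was called higher without 0 h replicate 1 (4.28, adjusted p = 0.00206) and lower without 0 h replicate 2 (-2.17, adjusted p = 0.0182). On both 48 h arrays all 13 stood above both 0 h arrays. In the plot of the 0 h difference against the change these genes form the arm to the right. Where such a gene is described below, its value without each 0 h array is given.

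**Figure D1:**
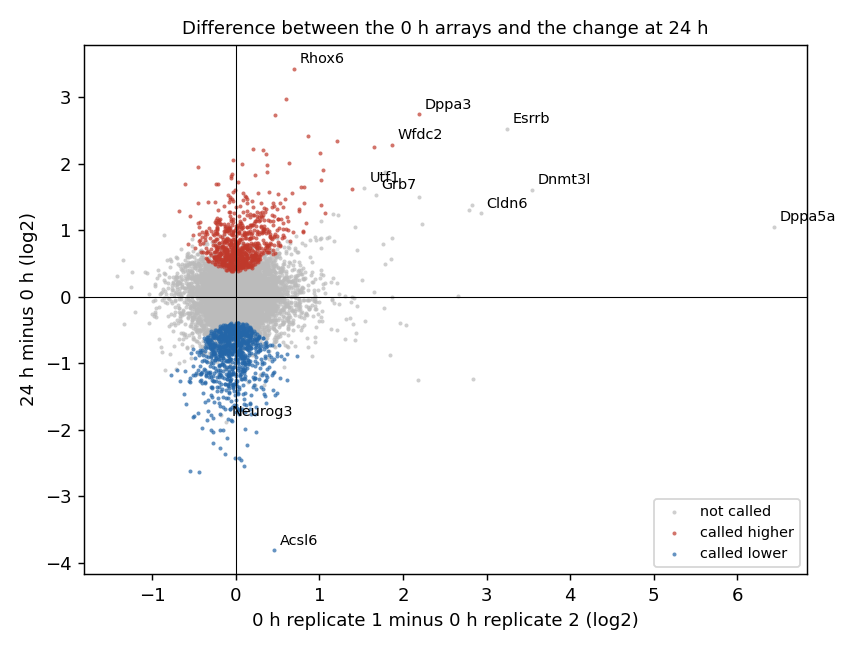
Each point is 1 of 9593 genes tested. The horizontal axis is 0 h replicate 1 minus 0 h replicate 2 (log2) and the vertical axis is 24 h minus the mean of 0 h (log2). Red points were called higher at 24 h, blue lower, grey not called. Genes more than 4-fold apart between the 0 h arrays, 13 in number, all lie to the right, and Dppa3 is the only 1 of them that was called.

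After 24 h of HDACi 1756 of 9593 genes tested differed from 0 h, 18.3% of the genes. Of these 817 were higher (8.52% of the genes tested) and 939 lower (9.79%), and 187 of the higher and 271 of the lower genes differed at least 2-fold. The median difference over all genes tested was -0.00 on the log2 scale. Both 24 h arrays stood above both 0 h arrays in 2907 of the 9593 genes, called or not, and below both in 3070. At an unadjusted p under 0.05 there were 3199 genes. Leaving out 1 array lowered the counts by over 1.5 times each time: 242 higher and 277 lower without 24 h replicate 1, 188 and 256 without 24 h replicate 2, 433 and 402 without 0 h replicate 1, and 294 and 303 without 0 h replicate 2. No gene called with all 6 arrays changed sign in these fits. Where the 2 groups do not overlap, leaving out 1 array cannot turn the sign. Of the 224 called genes named below, 72 were called in every one of the 4 fits that left out 1 array and 71 in none of them. With the 4 Tet-Myc arrays added to the fit, 98 genes were called higher and 114 lower.

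**Figure D2:**
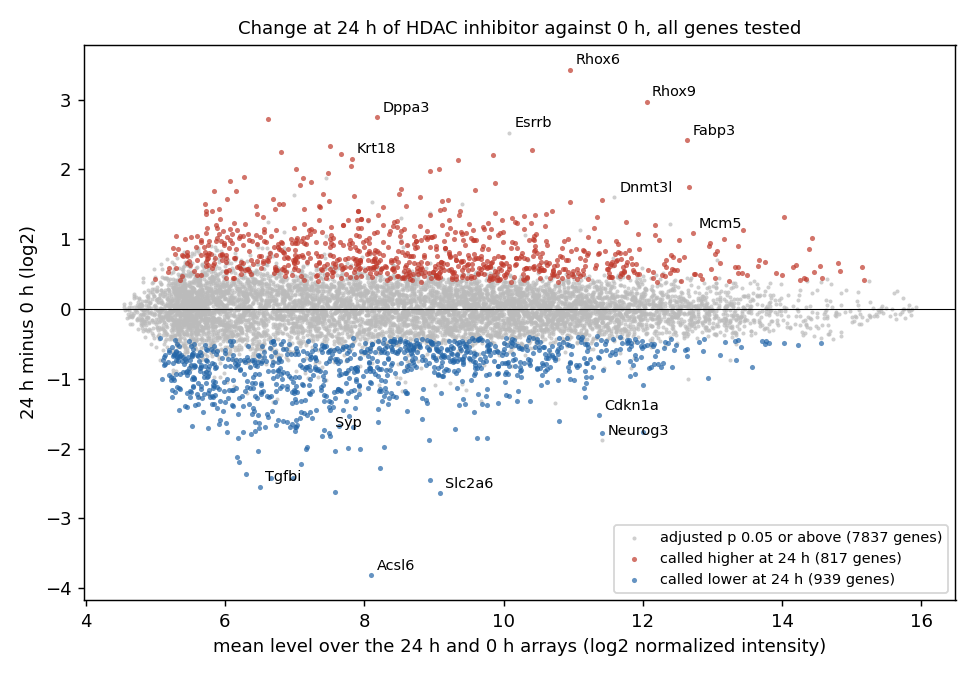
Each point is a gene tested, with its mean level over the 24 h and 0 h arrays (log2 normalized intensity) on the horizontal axis and 24 h minus 0 h (log2) on the vertical axis. Red marks the 817 genes called higher at 24 h and blue the 939 called lower. Called genes occur from dim to bright probes, and Rhox6 and Acsl6 mark the largest called rise and fall.

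The largest rises were in 2 homeobox genes of the X-linked Rhox cluster, a family expressed in the germ line and placenta. Rhox6 read 12.66 and 12.67 on the 24 h arrays, against 9.59 and 8.89 on the 0 h arrays, a 10.7-fold rise (log2 difference 3.43, SE 0.23, adjusted p = 0.0022). Rhox9 read 13.56 and 13.51 at 24 h, against 10.87 and 10.27 at 0 h, a 7.84-fold rise (SE 0.20, adjusted p = 0.0022). For both genes the 24 h arrays were close together and over 2 log2 units above the nearer 0 h array, replicate 1. They are close relatives, and whether each probe tells them apart was not checked here. Rhox5, the founding member of the cluster, read 13.48 and 13.59 at 24 h, against 12.29 and 11.27 at 0 h, a rise of 1.75 (SE 0.31, adjusted p = 0.0159). Its 24 h arrays also lay above both 0 h arrays, and the 0 h arrays were over 1 log2 unit apart. Rhox5 was not called without 24 h replicate 1 (adjusted p = 0.0591) or 24 h replicate 2 (adjusted p = 0.0723).

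Dppa3, a maternal factor that protects DNA methylation in the early embryo, read 9.56 and 9.55 at 24 h, against 7.91 and 5.72 at 0 h, a 6.71-fold rise (SE 0.64, adjusted p = 0.0337). Both 24 h arrays stood above both 0 h arrays, which differed between themselves by over 2 log2 units. The log2 difference was 3.84 without 0 h replicate 1 and 1.65 without 0 h replicate 2, and called both times. Dppa3 was not called without 24 h replicate 1 (adjusted p = 0.113) or 24 h replicate 2 (adjusted p = 0.115). Fabp3, a cytosolic fatty acid carrier, read 13.83 and 13.87 at 24 h, against 11.86 and 10.99 at 0 h, a 5.36-fold rise (SE 0.27, adjusted p = 0.0055). Wfdc2, a secreted protease inhibitor of epithelia, rose by 2.28 (SE 0.54, adjusted p = 0.0366), with 11.54 and 11.56 at 24 h, against 10.20 and 8.34 at 0 h. Wfdc2 was not called without 24 h replicate 1 (adjusted p = 0.118) or 24 h replicate 2 (adjusted p = 0.124). Fabp3 and Wfdc2 shared the same order of arrays, with 0 h replicate 1 nearer the 24 h arrays than 0 h replicate 2. This order held in 51.6% of all genes tested, 56.4% of the called genes and 13 of the 20 largest falls. Among the 20 largest rises this was the order of 17 genes, and 15 of the 20 were called in all 4 fits that left out 1 array.

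Aox3, Ceacam2 and Dok2 had 0 h arrays close together. Aox3, an aldehyde oxidase, read 8.72 and 8.82 at 24 h, against 6.66 and 6.45 at 0 h, a 4.65-fold rise (SE 0.13, adjusted p = 0.0022). Ceacam2, a cell adhesion molecule of the immunoglobulin family, read 8.87 and 8.80 at 24 h, against 6.77 and 6.80 at 0 h, a 4.15-fold rise (SE 0.10, adjusted p = 0.0022). Dok2, an adaptor below tyrosine kinases, read 10.87 and 11.02 at 24 h, against 8.91 and 8.58 at 0 h, a rise of 2.20 (SE 0.15). In these genes each group spanned less than 0.4 log2 units while the groups were about 2 apart. Tns4, an adaptor at focal adhesions, rose 4.00-fold, and Bhlhe40, a transcriptional repressor linked to the circadian clock, rose 4.40-fold. Stx3, a syntaxin of apical membrane fusion, rose 4.03-fold, and Large2, a glycosyltransferase of dystroglycan, rose 3.95-fold. Nanos3, an RNA-binding protein of germ cells, read 6.91 and 7.06 at 24 h and was not detected on either 0 h array, where it read 5.12 and 5.18, so that it was at least 2.99-fold higher at 24 h (adjusted p = 0.0022). The rest of the 20 were Mettl7b, Krt18, St6galnac2, Mep1b, Samd9l, Ccdc184 and Rbm43, with rises from 1.88 in Rbm43 to 2.73 in Mettl7b. Among genes called higher, 41 were undetected on both 0 h arrays.

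**Figure D3:**
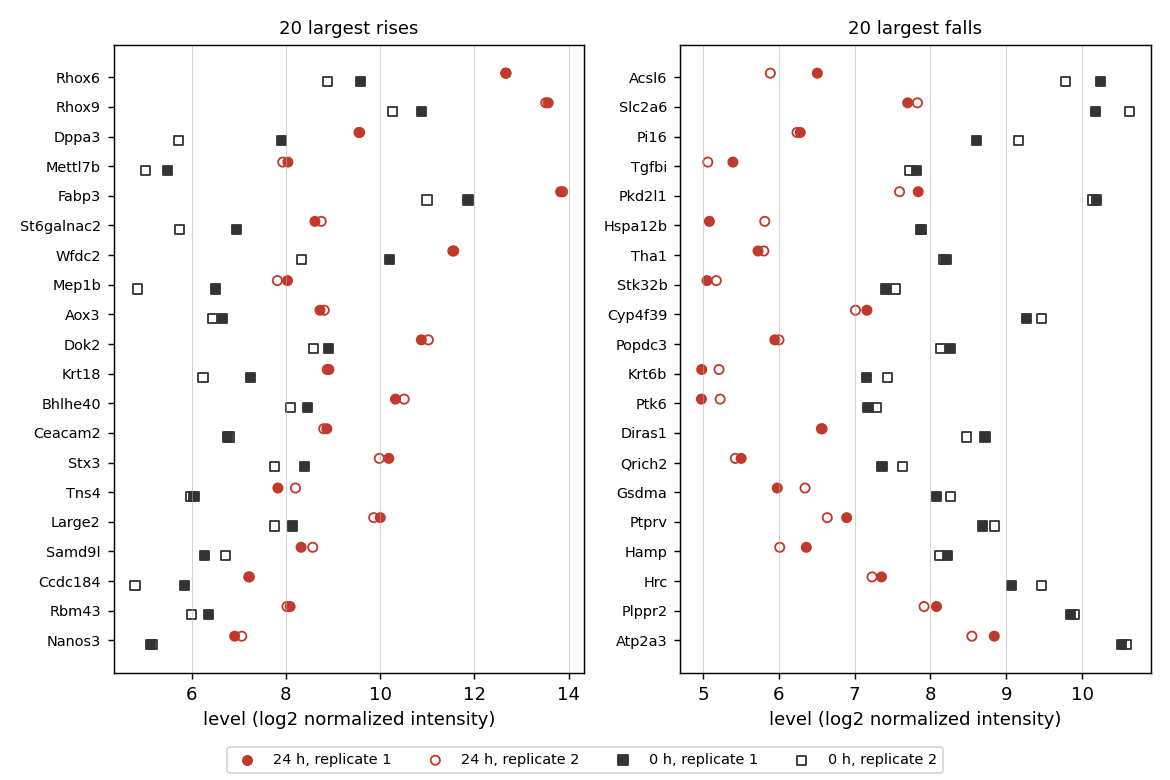
Levels (log2 normalized intensity) of the 20 called genes with the largest rise (left) and the 20 with the largest fall (right), on each array. Red circles are 24 h and dark squares 0 h, filled for replicate 1 and open for replicate 2. In every gene drawn the 2 groups do not overlap. Of the 9593 genes tested, 2907 had both 24 h arrays above both 0 h arrays and 3070 had both below. In 17 of the 20 rises and 13 of the 20 falls the filled 0 h square is nearer the 24 h circles than the open 1. This was the order in 51.6% of all genes tested.

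Acsl6, a ligase that activates long-chain fatty acids, had the largest fall. It read 6.51 and 5.89 on the 24 h arrays, against 10.24 and 9.78 on the 0 h arrays, a 14.0-fold fall (log2 difference -3.81, SE 0.65, adjusted p = 0.0144), and all 3 of its probes were called lower. Acsl6 was not called without 24 h replicate 2 (adjusted p = 0.0673), 0 h replicate 1 (adjusted p = 0.0639) or 0 h replicate 2 (adjusted p = 0.0584). Slc2a6, a sugar transporter of lysosomal membranes, read 7.70 and 7.83 at 24 h, against 10.18 and 10.62 at 0 h, a 6.21-fold fall (SE 0.18, adjusted p = 0.0022). In both genes the 0 h arrays stood at about 10 and every 24 h array was over 2 log2 units below. Pkd2l1, a calcium-permeable channel, read 7.84 and 7.59 at 24 h, against 10.19 and 10.13 at 0 h, a 5.45-fold fall (SE 0.15). Tha1, a threonine aldolase, read 5.73 and 5.80 at 24 h, against 8.20 and 8.17 at 0 h, a 5.35-fold fall (SE 0.12). The 0 h arrays of both genes agreed within 0.1 log2 units, and the 24 h arrays lay over 2 below.

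Several genes were present at 0 h and undetected on both 24 h arrays. Tgfbi, a secreted matrix protein induced by TGF-beta, read 5.40 and 5.06 at 24 h and 7.82 and 7.73 at 0 h, and was at least 4.66-fold lower (adjusted p = 0.0022). Stk32b, a kinase, was at least 3.79-fold lower, and Qrich2, known for its place in the sperm tail, at least 3.84-fold. Krt6b, a keratin of stressed epidermis, was at least 3.34-fold lower, and Ptk6, a tyrosine kinase of epithelia, at least 3.20-fold. Over all genes, 142 of those called lower were undetected on both 24 h arrays. Among the other large falls were Atp2a3, a calcium pump of the endoplasmic reticulum, which fell 3.61-fold, Hrc, a calcium-binding protein of the sarcoplasmic reticulum, which fell 3.92-fold, and Hamp, the iron hormone hepcidin, which fell 3.95-fold. Pi16, Hspa12b, Cyp4f39, Popdc3, Diras1, Gsdma, Ptprv and Plppr2 completed the 20, with log2 differences between -2.62 in Pi16 and -1.87 in Plppr2. Of the 20 largest falls 16 were called in all 4 fits that left out 1 array.

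Many DNA replication and mitosis genes rose. Of 35 DNA replication genes tested 21 were called higher and 0 lower, leaving 14 not called, with a median difference of 0.55, beside 8.52% of all genes called higher and a median of -0.00. Mcm5, a subunit of the replicative helicase, read 13.14 and 13.40 at 24 h, against 12.07 and 12.29 at 0 h, a 2.12-fold rise (SE 0.15, adjusted p = 0.00876). The helicase subunits Mcm7 (rise of 1.14), Mcm2 (1.03), Mcm3 (1.00) and Mcm4 (0.65) were also called higher, while Mcm6 read 11.97 and 11.80 at 24 h, against 11.73 and 11.11 at 0 h, and was not called. In all 5 called subunits both 24 h arrays stood above both 0 h arrays, as they did in 2907 of the 9593 genes tested. Lig1, the DNA ligase that joins Okazaki fragments, rose by 0.90, Pold1, the catalytic subunit of polymerase delta, by 0.86, and Tyms, which makes thymidylate, by 0.81. Chaf1b, a chaperone that loads histones onto new DNA, rose by 0.84, and Uhrf1, which carries DNA methylation through replication, by 0.52. Pcna, the sliding clamp, read 8.37 and 8.32 at 24 h, against 7.88 and 7.30 at 0 h (difference 0.75, adjusted p = 0.0508), and was not called, but it was called higher in 9 of 15 alternative settings, among them without 0 h replicate 1 (1.04, adjusted p = 0.0238). Between 6 and 12 members were called higher when 1 of the 4 arrays was left out, and 5 were with the Tet-Myc arrays added.

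Of 28 mitosis genes tested 19 were called higher, 0 lower and 9 not called, with a median of 0.69. Cdc25c, the phosphatase that switches on the mitotic kinase, read 9.39 and 9.46 at 24 h, against 8.27 and 8.50 at 0 h, a rise of 1.04 (SE 0.13, adjusted p = 0.00728). Birc5 and Cdca8, members of the chromosomal passenger complex, rose by 0.99 (SE 0.11) and 1.00 (SE 0.14). Top2a, which untangles sister chromatids, rose by 0.98 (SE 0.13), and Cenpa, the centromeric histone H3, by 0.90 (SE 0.12). Plk1, a kinase of mitotic entry, read 7.07 and 6.19 at 24 h and 5.03 and 5.37 at 0 h, where it was undetected on both arrays, and was at least 2.32-fold higher (adjusted p = 0.024). Plk1 was not called without 24 h replicate 1 (adjusted p = 0.0525), 0 h replicate 1 (adjusted p = 0.0968) or 0 h replicate 2 (adjusted p = 0.0665). Cdk1, the mitotic kinase itself, rose by 0.79, and the motor proteins Kif23, Kif2c, Kif11 and Kif4 by 0.73 in Kif4 to 0.91 in Kif23. Aurka, a spindle pole kinase, read 12.26 and 12.03 at 24 h, against 12.20 and 11.66 at 0 h, and was not called. Between 5 and 11 members were called higher with 1 array left out, and 10 with the Tet-Myc arrays added. Of 18 cyclins, CDK inhibitors and partners 2 were higher (Rbl1 and E2f1) and 2 lower (Rb1 and Cdkn1a), shares near the 8.52% of all genes higher and 9.79% lower. With 1 array left out 0 to 1 of them was higher and 0 lower. E2f1, a driver of S-phase genes, differed by 0.47 (SE 0.12), and the retinoblastoma gene Rb1, which restrains E2F factors, by -0.84 (SE 0.14), and neither was called in any of the 4 fits that left out 1 array.

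Promoter sequences from RefSeq on build GRCm38.p6, 250 bases before to 50 bases after a listed start, were at hand for 31 of the 35 replication genes, 24 of the 28 mitosis genes, 659 of the 817 genes called higher, 751 of the 939 called lower and 7811 of the 9593 genes tested. Those of 2 called genes of each list are printed so that the letters behind the shares below can be seen. The first listed start of a gene was used, both strands were searched, and matches of different motifs could overlap. Capitals mark matches, on either strand, to the Sp1-type motif GGGCGG, the motif bound by NF-Y, which reads CCAAT, the E-box motif CACGTG, the cyclic AMP response element TGACGTCA, the TBP-type motif TATAAA and the E2F-like motif GCGGGAA.
Mcm7, chr5:138171834-138172133, minus strand: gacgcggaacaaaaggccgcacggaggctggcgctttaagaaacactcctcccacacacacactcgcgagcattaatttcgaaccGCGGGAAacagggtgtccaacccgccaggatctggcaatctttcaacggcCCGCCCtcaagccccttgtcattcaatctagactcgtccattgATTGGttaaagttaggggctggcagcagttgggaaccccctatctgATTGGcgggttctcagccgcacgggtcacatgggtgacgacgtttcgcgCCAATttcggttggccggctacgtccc
Mcm5, chr8:75109259-75109558, plus strand: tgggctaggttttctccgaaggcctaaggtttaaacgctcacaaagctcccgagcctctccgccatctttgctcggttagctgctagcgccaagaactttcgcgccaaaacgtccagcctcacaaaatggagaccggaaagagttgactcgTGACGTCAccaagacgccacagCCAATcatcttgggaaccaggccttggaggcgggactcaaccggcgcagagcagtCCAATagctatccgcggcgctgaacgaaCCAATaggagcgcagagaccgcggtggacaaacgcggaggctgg
Plk1, chr7:122159185-122159484, plus strand: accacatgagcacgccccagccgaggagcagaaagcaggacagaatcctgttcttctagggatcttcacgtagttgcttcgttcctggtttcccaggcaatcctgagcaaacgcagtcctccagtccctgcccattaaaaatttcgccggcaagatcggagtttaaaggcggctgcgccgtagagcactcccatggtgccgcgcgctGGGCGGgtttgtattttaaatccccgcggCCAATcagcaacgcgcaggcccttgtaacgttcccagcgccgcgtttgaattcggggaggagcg
Cdca8, chr4:124936868-124937167, minus strand: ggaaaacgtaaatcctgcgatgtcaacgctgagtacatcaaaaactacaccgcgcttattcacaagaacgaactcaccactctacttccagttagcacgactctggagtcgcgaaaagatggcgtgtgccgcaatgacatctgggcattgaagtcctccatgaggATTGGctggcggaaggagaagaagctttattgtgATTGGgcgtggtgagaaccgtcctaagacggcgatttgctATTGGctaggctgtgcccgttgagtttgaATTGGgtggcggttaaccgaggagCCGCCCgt

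The Mcm7 and Mcm5 windows each hold 3 CCAAT matches, and Mcm7 also has 1 match to GCGGGAA and Mcm5 has 1 match to TGACGTCA. Cdca8 holds 4 CCAAT matches, all read on the reverse strand, and Plk1 holds 1. CCAAT was found in 64.5% of the replication promoters and 75% of the mitosis promoters, against 43.7% of those of genes called higher, 39.1% of those called lower and 39.7% of all. GCGGGAA was found in 41.9% of the replication promoters and 0 of the 24 mitosis promoters, against 10.9% of genes called higher, 4.26% of those called lower and 8.13% of all. The remaining motifs differed little between genes called higher, called lower and all. GGGCGG was in 65.1%, 64.8% and 64.1% of them, CACGTG in 11.1%, 12.3% and 10.1%, TGACGTCA in 2.88%, 2.53% and 3.21%, and TATAAA in 8.95%, 8.92% and 7.68%. In the replication and mitosis promoters GGGCGG was in 71% and 75%, and CACGTG in 19.4% (6 of 31) and 8.33% (2 of 24). There TGACGTCA was in 3.23% and 8.33%, and TATAAA in 6.45% and 4.17%. The median number of CpG dinucleotides per window was 19 for genes called higher, 19 for those called lower and 20 for all. A match of letters is a description of the window and not a site in use.

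**Figure D4:**
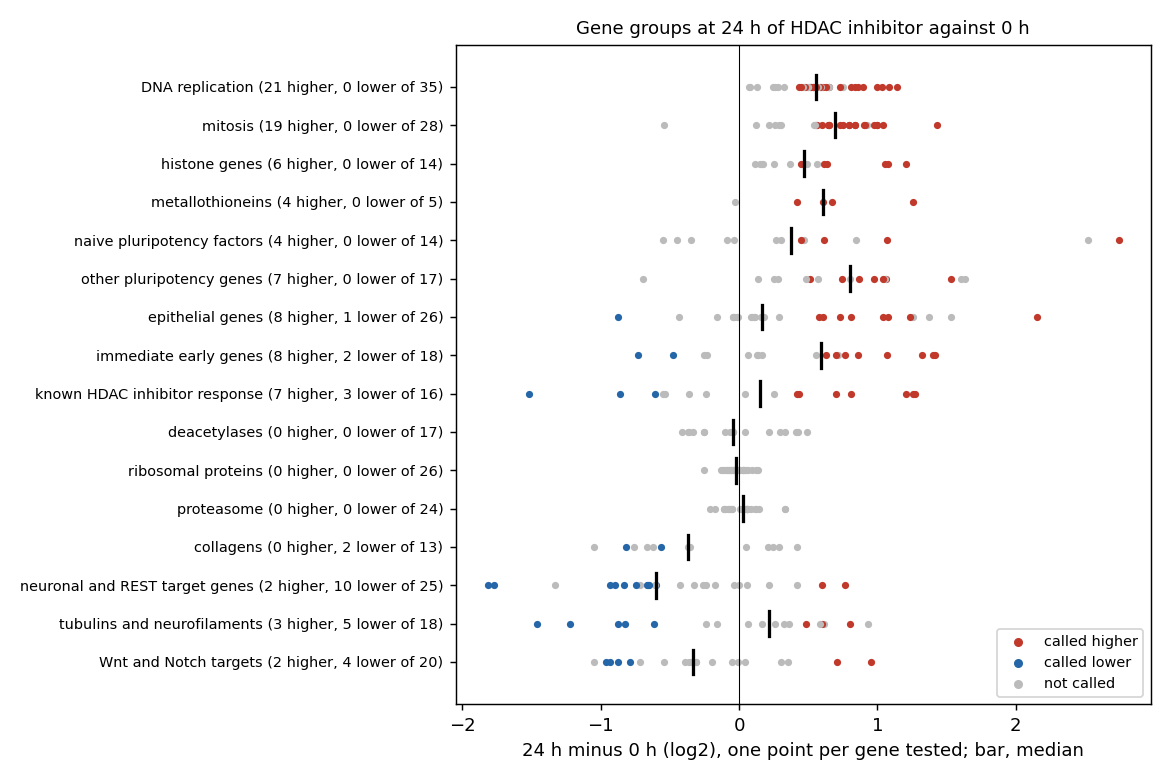
Each point is 1 tested gene of a group, placed by 24 h minus 0 h (log2), red where called higher, blue where called lower and grey where not called. Black bars are group medians, and the counts beside each name give the calls. Replication (21 of 35) and mitosis (19 of 28) genes lie mostly to the right of 0, neuronal genes (10 of 25 lower) mostly to the left, and ribosomal protein and proteasome genes close to 0.

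None of the 17 deacetylase genes tested, 11 Hdac and 6 Sirt members, was called in either direction (0 of 17 by limma, with 5 at an unadjusted p under 0.05). The Hdac genes encode the classical zinc-dependent enzymes and the sirtuins a separate NAD-dependent family. Hdac1 read 11.69 and 11.95 at 24 h, against 11.83 and 11.94 at 0 h, and Hdac2 read 12.97 and 12.89, against 12.92 and 13.04. In both genes the arrays of the groups overlapped. The differences of the list ran from -0.41 in Sirt6 to 0.49 in Hdac7, with Hdac3, Hdac4, Hdac5, Hdac6, Hdac8, Hdac9, Hdac10, Hdac11, Sirt1, Sirt2, Sirt3, Sirt5 and Sirt7 in between. In the fit of the 4 arrays alone Hdac7, at 6.01 and 5.94 at 24 h, against 5.39 and 5.56 at 0 h, was called higher (adjusted p = 0.0442). Over the 15 alternative settings Sirt7 (-0.36) was called lower in 5, Sirt3 (0.41) higher in 4 and Hdac6 (0.43) higher in 1. Of 13 genes of deacetylase complexes 2 were called higher, Mta3 (rise of 1.25) and Mbd3 (0.61), both parts of the NuRD complex, beside 8.52% of all genes. In the leave-one-out fits 0 to 1 of the list was called, Mbd3 in none of the 4 fits. Mta3 was not called with the 4 arrays alone (adjusted p = 0.0627), and its difference was 1.78 without 0 h replicate 1 and 0.72 without 0 h replicate 2. Of 13 acetyltransferases and bromodomain readers 2 were called higher, Ncoa1 (1.12) and Ep300 (0.50), both acetyltransferases. With 1 array left out the difference of Ep300 was 0.43 to 0.57, and it was called in none of these fits.

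Genes known to respond to such inhibitors in other cells went both ways, with 7 called higher and 3 lower of 16 tested and a median of 0.15 (2 to 4 higher and 0 to 2 lower with 1 array left out). Over all genes 8.52% were higher and 9.79% lower. Gadd45b, a stress-induced partner of cell cycle and repair proteins, read 9.84 and 9.87 at 24 h, against 8.71 and 8.46 at 0 h, a rise of 1.27 (SE 0.12, adjusted p = 0.00466). H2bc4, a replication-linked H2B histone with near-identical copies, read 9.74 and 9.69 at 24 h, against 8.67 and 8.35 at 0 h, a rise of 1.21 (SE 0.14, adjusted p = 0.00556). In both genes the 24 h arrays lay over 1 log2 unit above the 0 h arrays. Cdkn1a, the p21 inhibitor of cyclin-dependent kinases that is known to rise under these drugs in many cell types, was lower here. It read 10.64 and 10.58 at 24 h, against 12.07 and 12.19 at 0 h, a 2.87-fold fall (SE 0.32, adjusted p = 0.0268), and all 3 of its probes were called lower. Each group spanned under 0.2 log2 units, while the 48 h arrays, which share the estimate of the spread, stood at 9.19 and 8.12. In the fit of the 4 arrays alone the adjusted p was 0.00552. Cdkn1a was not called without 24 h replicate 1 (adjusted p = 0.0925), 24 h replicate 2 (adjusted p = 0.102), 0 h replicate 1 (adjusted p = 0.0832) or 0 h replicate 2 (adjusted p = 0.106). Txnip, an inhibitor of thioredoxin, fell by 0.86, and Sat1, which acetylates polyamines, fell by 0.61.

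Metallothioneins, small metal-binding proteins, had 4 called higher and 0 lower of 5 genes in their list, with a median of 0.61. Over all genes 8.52% were higher and 9.79% lower. Mt2 read 8.76 and 9.45 at 24 h, against 7.99 and 7.70 at 0 h, a rise of 1.26 (SE 0.24, adjusted p = 0.0189), and Mt1, near the top of the intensity range, read 15.33 and 15.44 at 24 h, against 14.93 and 14.99 at 0 h (rise of 0.42). Both 24 h arrays were above both 0 h arrays for each, and Mt3 and Mt4 rose by 0.67 and 0.61. Mt2 was not called without 24 h replicate 2 (adjusted p = 0.0559), 0 h replicate 1 (adjusted p = 0.0512) or 0 h replicate 2 (adjusted p = 0.0886). Over the fits that left out 1 array between 0 and 1 member was called. Of 14 histone genes 6 were called higher and 0 lower, with a median of 0.47. These were H2bc4, H2bc12 (rise of 1.05), H2ac7 (0.45) and H3c1 (0.62), which belong to replication-linked clusters of near-identical copies, and the variants H2ax (1.08), which marks broken DNA, and H2az1 (0.64). Between 1 and 3 were called with 1 array left out.

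The reprogramming factors split. Pou5f1, which encodes Oct4, read 13.27 and 13.26 at 24 h, against 12.78 and 12.86 at 0 h, a rise of 0.44 (SE 0.10, adjusted p = 0.0341), called in 1 of its 2 probes. Myc read 5.94 and 6.16 at 24 h, against 6.66 and 6.91 at 0 h, a difference of -0.73 (SE 0.14, adjusted p = 0.0213). With the mean of all its probes the Myc difference was -0.35 and not called (adjusted p = 0.0946). Neither pair of groups overlapped. Sox2 read 7.17 and 7.21 at 24 h, against 7.77 and 7.51 at 0 h (difference -0.45, adjusted p = 0.104), and Klf4 read 6.53 and 6.20 at 24 h, against 7.09 and 6.74 at 0 h (difference -0.55, adjusted p = 0.0851). Both were lower on each 24 h array than on each 0 h array and neither was called, although Klf4 was called lower with the replicate number as a block (adjusted p = 0.0271) and with the mean of all its probes (-0.61, adjusted p = 0.0136). No source used here says whether a probe reads the endogenous gene, the introduced factor or both. Pou5f1 was not called without 24 h replicate 1 (adjusted p = 0.15), 24 h replicate 2 (adjusted p = 0.152), 0 h replicate 1 (adjusted p = 0.122) or 0 h replicate 2 (adjusted p = 0.0945). Myc was not called without 24 h replicate 1 (adjusted p = 0.109), 24 h replicate 2 (adjusted p = 0.0639) or 0 h replicate 2 (adjusted p = 0.0911).

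Of 14 transcription factors of naive pluripotency tested, a list that also holds Pou5f1, Sox2 and Klf4, 4 were called higher and 0 lower, with a median of 0.37. With 1 array left out 1 to 5 were higher and the median was 0.25 to 0.51, the highest of both without 0 h replicate 1. The 4 called higher were Dppa3, Klf2, Mybl2 and Pou5f1, beside 8.52% of all genes. Klf2, a Kruppel-like factor of the naive state, read 9.99 and 9.89 at 24 h, against 8.90 and 8.85 at 0 h, a 2.10-fold rise (SE 0.11, adjusted p = 0.0053), with arrays of each group within 0.2 of each other. Mybl2, which also drives mitotic genes, rose by 0.62 (SE 0.12). Esrrb, an orphan nuclear receptor of the naive network, read 11.32 and 11.37 at 24 h, against 10.44 and 7.19 at 0 h (difference 2.52, SE 0.93, adjusted p = 0.116). Its 24 h arrays stood above both 0 h arrays, of which replicate 1 was within 1 log2 unit of them and replicate 2 over 4 units below. Esrrb was called higher without either 0 h array, by 4.15 without replicate 1 (adjusted p = 0.00206) and by 0.90 without replicate 2 (adjusted p = 0.0334). Nanog, a core factor of the network, read 13.40 and 13.01 at 24 h, against 13.22 and 12.59 at 0 h, with overlapping groups and no call. Zfp42 (difference 0.84), Nr5a2 (0.47), Zfx (0.26), Klf5 (-0.04), Tbx3 (-0.09) and Stat3 (-0.35) were not called. Nr0b1 and Prdm14 were undetected on all 4 arrays and not tested.

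Other genes of pluripotent cells had 7 called higher and 0 lower of 17 tested, beside 8.52% of all genes higher. The median of the list was 0.80. Gdf3, a TGF-beta family ligand of ES cells, read 11.72 and 11.71 at 24 h, against 10.14 and 10.23 at 0 h, a 2.89-fold rise (SE 0.16, adjusted p = 0.0053). L1td1, an RNA-binding protein derived from a transposon, read 10.52 and 10.38 at 24 h, against 9.32 and 9.46 at 0 h, a rise of 1.06 (SE 0.11). Lin28a, which blocks maturation of let-7 microRNAs, read 9.42 and 9.52 at 24 h, against 8.39 and 8.48 at 0 h, a rise of 1.04 (SE 0.12). In these genes both groups were tight and stood about 1 to 1.5 log2 units apart. Fbxo15, a target of Oct4, rose by 0.98, Zfp296, a zinc finger protein of ES cells, by 0.87, Tcl1, a cofactor of the kinase Akt, by 0.74, and Trim28, a corepressor that silences retroviruses, by 0.51. Dnmt3l, a cofactor of de novo DNA methylation, read 12.39 and 12.39 at 24 h, against 12.56 and 9.01 at 0 h (difference 1.61, adjusted p = 0.323), so its 24 h arrays lay between the 0 h arrays. Without 0 h replicate 1 it was called higher (3.38, adjusted p = 0.00276), and without 0 h replicate 2 the difference was -0.17 (adjusted p = 0.463). Utf1, a chromatin-bound factor, read 7.62 and 8.00 at 24 h, against 6.94 and 5.41 at 0 h (difference 1.63, adjusted p = 0.061), and Eras, a constitutively active Ras of ES cells, differed by 0.80 (adjusted p = 0.0774). Sall4 (0.25), Dppa4 (0.13), Dppa5a (1.05), Ooep (0.49) and Jam2 (-0.69) were not called, and Jam2 was called lower in 8 of 15 alternative settings, such as the 4 arrays alone (adjusted p = 0.0201). Fgf4 was undetected on all 4 arrays of the comparison, Tdgf1 was detected on 1 of them, and Jarid2, Rex2, Mycn and Trap1a were undetected on all 6 HDACi arrays. Without 0 h replicate 1 the list had 10 called higher and a median of 0.99, and between 4 and 10 over the fits that left out 1 array.

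**Figure D5:**
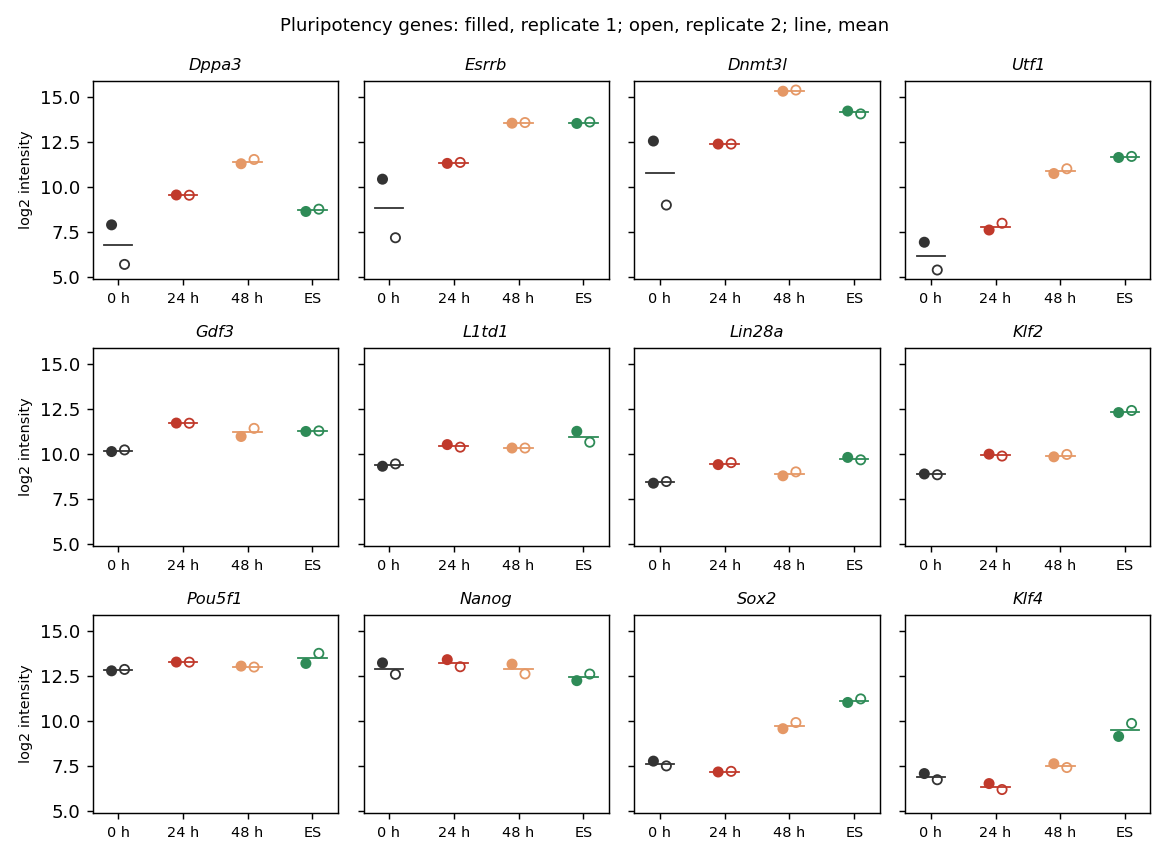
Levels (log2 intensity) of 12 pluripotency genes on the arrays at 0, 24 and 48 h of HDACi and on the 2 ES cell arrays, filled for replicate 1 and open for replicate 2, with a line at the mean. Dppa3, Esrrb, Dnmt3l and Utf1 have 0 h arrays far apart, while Gdf3, L1td1, Lin28a and Klf2 have tight arrays with 24 h above 0 h, and Sox2 and Klf4 are lower at 24 h than at 0 h.

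Of 26 epithelial genes tested 8 were called higher and 1 lower, beside 8.52% and 9.79% of all genes, with a median of 0.17. Krt18, a simple-epithelium keratin, read 8.91 and 8.88 at 24 h, against 7.24 and 6.24 at 0 h, a 4.45-fold rise (SE 0.31, adjusted p = 0.00997), and its partner Krt8 rose by 0.81 (SE 0.12). Cdh1, E-cadherin, read 10.31 and 10.47 at 24 h, against 9.37 and 8.94 at 0 h, a 2.35-fold rise (SE 0.17, adjusted p = 0.0089). Cdh1 was not called without 24 h replicate 2 (adjusted p = 0.051). Its 24 h arrays lay above both 0 h arrays and below the C-class clones (11.06 to 11.83), within the span of the F-class clones (8.04 to 10.98). St14, a membrane serine protease, rose by 1.08, Dsg2, a desmosomal cadherin, by 1.04, Esrp1, an epithelial splicing regulator, by 0.73, and Spint1, an inhibitor of St14, by 0.61. Cldn3, a tight-junction claudin, fell by 0.88. Jup, a plaque protein of junctions, was called higher but was undetected on both arrays of each group. Grb7, an adaptor and marker of C-class clones, read 8.98 and 8.78 at 24 h, against 8.19 and 6.51 at 0 h (adjusted p = 0.083), and Cldn6 read 8.65 and 8.72, against 8.89 and 5.96 (adjusted p = 0.351), with 0 h replicate 1 of Cldn6 above both 24 h arrays. Without 0 h replicate 1 both were called higher, Grb7 by 2.37 and Cldn6 by 2.72, and without 0 h replicate 2 neither was (0.70 and -0.21). Without 0 h replicate 1 the list had 9 higher and 0 lower and a median of 0.33, and between 3 and 9 higher with 1 array left out.

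Of 10 transcription factors of the mesenchymal state 0 were called by limma, with a median of -0.12 and 0 at an unadjusted p under 0.05. Zeb1, a repressor of Cdh1, read 8.89 and 8.81 at 24 h, against 8.98 and 9.12 at 0 h (difference -0.20, adjusted p = 0.269), and Snai1, another such repressor, read 8.63 and 8.63, against 8.80 and 8.43. The largest differences of this list were those of Twist2 (-0.30) and Twist1 (-0.27), basic helix-loop-helix factors. Of 20 extracellular matrix genes 6 were called higher and 4 lower. The counts of this and the next groups stand beside 8.52% of all genes higher and 9.79% lower. Ccn1 and Ccn2, matricellular proteins that respond to the coactivators Yap and Taz, rose by 1.34 (SE 0.17) and 0.86 (SE 0.12). Mgp, Thbs1, Serpinh1 and Sparc rose by 0.56 in Sparc to 1.11 in Mgp. Tgfbi, Dcn, a small proteoglycan (-1.41), Thbs2 (-0.93) and Loxl2 (-0.50) were lower. Of 13 collagens 2 were lower, Col5a1 (-0.81) and Col6a2 (-0.56), and 0 higher, with a median of -0.37. In the leave-one-out fits the matrix list had 2 to 4 higher and 1 lower, and 0 to 1 collagen was lower. The summed fibroblast markers were also lower at 24 h (9996 and 11301, against 13394 and 14985), and the part of cell mixture in these groups was not tested. On bulk arrays fewer cells of a type and less RNA per cell cannot be told apart. Vim, the mesenchymal intermediate filament, rose by 0.80 (SE 0.18). Of 19 actin and contractile genes 4 were higher and 1 lower. Actg1, Cnn2, Tpm1 and Pfn1 rose by 0.47 in Pfn1 to 0.86 in Actg1. The skeletal muscle actin Acta1 was undetected on both 24 h arrays and at least 1.24-fold lower. Cnn2, Tpm1 and Pfn1 were called in none of the 4 fits that left out 1 array, Actg1 in 1 and Acta1 in all. Of 22 integrins and adhesion genes 2 were higher, the fibronectin receptor subunit Itga5 (0.85) and the focal adhesion protein Zyx (0.70). The 1 lower was the platelet integrin Itga2b, at least 1.75-fold. These shares, 9.09% higher and 4.55% lower, lie near or under those of all genes.

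Neuronal genes and targets of the repressor REST had 10 called lower and 2 higher of 25 tested, with a median of -0.60, beside 9.79% of all genes lower. Elavl4, a neuronal RNA-binding protein, read 6.30 and 6.66 at 24 h, against 8.16 and 8.44 at 0 h, a 3.52-fold fall (SE 0.17, adjusted p = 0.0045). Syp, the synaptic vesicle protein synaptophysin, read 6.66 and 6.56 at 24 h, against 8.49 and 8.27 at 0 h, a 3.41-fold fall (SE 0.14, adjusted p = 0.00321). In both genes each 24 h array was over 1.4 log2 units below each 0 h array. Also lower were Rab3a, a GTPase of vesicle release (-0.93), Uchl1, a neuronal ubiquitin hydrolase (-0.83), Bex2 (-0.75), Syt11 (-0.66) and Syn1, which tethers synaptic vesicles (-0.60). Gad1, which makes the transmitter GABA, was undetected on both 24 h arrays and at least 1.23-fold lower. Bex1 and Gap43, a growth cone protein, rose by 0.76 and 0.60. Between 3 and 6 members were called lower with 1 array left out, and 1 with the Tet-Myc arrays added.

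Related groups held lower members too, and their counts stand beside 8.52% of all genes higher and 9.79% lower. Of 18 tubulins and neurofilaments 5 were lower and 3 higher with a median of 0.21, and all 5 lower members are known from neurons. These were Ina, a neurofilament (-1.46), Map2, a dendritic microtubule protein (-0.87), Tubb4a (-0.83) and Map1b (-0.62), and Prph was at least 1.69-fold lower. Tubb5, Tuba1a and Vim were higher. Over the fits that left out 1 array 0 to 1 of this list was higher and 1 lower. Of 7 neural progenitor genes 3 were lower, Hes6 (-0.75), Sox21 (-0.44) and Neurog2, which was at least 1.44-fold lower, and Nes, the intermediate filament nestin, rose by 1.03. Neurog3, a proneural factor high in F-class cells, read 10.45 and 10.51 at 24 h, against 12.30 and 12.42 at 0 h. Its groups were tight and nearly 2 log2 units apart, yet it was not called (difference -1.88, SE 0.93, adjusted p = 0.219), with 48 h arrays, which share the estimate of the spread, at 8.83 and 5.58. In the fit of the 4 arrays alone it was called lower (adjusted p = 0.00541). The promoter of Syp, the largest called fall of the neuronal list after Elavl4, is printed with the same capitals and holds 2 GGGCGG matches.
Syp, chrX:7638330-7638629, plus strand: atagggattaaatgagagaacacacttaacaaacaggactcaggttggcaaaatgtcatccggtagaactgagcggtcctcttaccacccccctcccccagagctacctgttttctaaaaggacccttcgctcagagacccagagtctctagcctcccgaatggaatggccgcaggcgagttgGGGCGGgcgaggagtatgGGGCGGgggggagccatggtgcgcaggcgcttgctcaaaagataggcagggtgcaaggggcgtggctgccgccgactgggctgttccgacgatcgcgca

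Immediate early genes and their relatives, which answer growth factors within hours, had 8 called higher and 2 lower of 18 tested, with a median of 0.59 (3 to 7 higher and 0 to 1 lower with 1 array left out). Jun, part of the AP-1 factor, read 10.00 and 10.14 at 24 h, against 8.44 and 8.89 at 0 h, a 2.64-fold rise (SE 0.17, adjusted p = 0.00689). Dusp6 and Dusp4, phosphatases that switch off ERK, rose by 1.32 (SE 0.25) and 1.42 (SE 0.11). Dusp4 had the tighter groups, 9.80 and 9.81 at 24 h, against 8.34 and 8.42 at 0 h, and Dusp6 had 0 h arrays at 11.05 and 10.30. Jund, Fos, Klf2, Klf6 and Ier3 rose by 0.63 in Ier3 to 1.07 in Klf2, and Sgk1, a kinase induced by glucocorticoids, fell by 0.48. Of 20 Wnt and Notch targets 2 were higher, Axin2 (0.95) and Tcf7l1 (0.71), and 4 lower, beside 8.52% of all genes higher and 9.79% lower. With 1 array left out 1 to 2 were higher and 0 to 3 lower. Lef1, a nuclear effector of Wnt, fell by 0.96 (SE 0.20), and the others were Nkd2, an inhibitor of the pathway (-0.88), and the Notch targets Nrarp (-0.93) and Hey1 (-0.79). Among 8 primed and Nodal genes Otx2, a factor of the epiblast, rose by 0.85 and the Nodal antagonist Lefty1 fell by 0.93.

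Cell death and stress lists held calls in both directions, beside 8.52% of all genes higher and 9.79% lower. Of 18 genes of the Bcl2 family and its partners 4 were higher and 3 lower. Pmaip1, the BH3-only killer protein Noxa, read 9.89 and 9.89 at 24 h, against 8.46 and 8.20 at 0 h, a 2.94-fold rise (SE 0.18, adjusted p = 0.00585), and its groups were more than 1.4 log2 units apart. Birc2, Bik and Bcl2l2 rose by 0.48 in Bcl2l2 to 0.58 in Birc2, while the killers Bmf (-0.86), Bid (-0.72) and Bbc3 (-0.57) were lower. With the mean of all probes Bcl2l2 (0.47, adjusted p = 0.106), Bid (-0.29, adjusted p = 0.106) and Bbc3 (-0.09, adjusted p = 0.599) were not called. Birc2, Bik, Bcl2l2, Bid and Bbc3 were called in no fit that left out 1 array. Of 18 p53 targets 5 were higher (Pmaip1, Gadd45b, Pml, Phlda3 and Gadd45a) and 2 lower (Cdkn1a and Bbc3), with a median of -0.29. Pml, the scaffold of nuclear bodies, rose by 1.10. Of 15 heat shock genes 2 were higher, the small chaperone Cryab (1.70, SE 0.17) and the regulator Hsf2 (0.78). Of 24 genes of the ATF4 and unfolded protein response 2 were higher, Atf4 (0.56) and the amino acid transporter subunit Slc3a2 (0.63), and 3 lower, Cth (-0.64), Ddit4 (-0.70) and Cbs (-0.79). In the leave-one-out fits 3 p53 targets were higher and 0 lower, 1 to 2 of the Bcl2 family list were higher and 0 to 1 lower, and 0 to 1 gene of the ATF4 list was lower.

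The counts of metabolic and housekeeping groups stand beside 8.52% of all genes higher and 9.79% lower. Of 18 glycolysis genes 1 was higher, the glucose transporter Slc2a1 (0.90), and 4 lower, Eno3 (-0.63), Pdk1 (-0.60), Pfkm (-0.54) and Aldoc (-0.45). Of 30 oxidative phosphorylation genes 2 were lower, Ndufa1 (-0.45) and Atp5d (-0.43). Of 19 cholesterol synthesis genes Ebp was higher (0.69) and Hsd17b7 (-0.80), Stard4 (-0.77) and Dhcr7 (-0.70) were lower. Of 29 lysosome genes 5 were lower, the cathepsins Ctsf (-1.17), Ctsb (-0.42) and Ctsd, the last at least 1.17-fold, the membrane protein Lamp2 (-0.78) and the glucosidase Gaa (-0.59), and 1 was higher, the tetraspanin Cd63 (1.14). Of 20 genes of oxidative stress 2 were higher, the haem oxygenase Hmox1 (0.76) and the peroxidase Gpx1 (0.66), and 2 lower, the transferase Gstm1 (-0.85) and Txnip. None of 26 ribosomal protein genes and none of 24 proteasome genes was called by limma (0 and 0), with medians of -0.02 and 0.03 and with 0 and 2 genes at an unadjusted p under 0.05. The largest differences among them were those of Rplp0 (-0.26) and Rpl30 (0.13), and of the proteasome ATPases Psmc3 (0.34) and Psmc4 (0.33). Over 15 alternative settings Psmc3 was called higher in 5 and Psmc4 in 4. Of 28 genes of ribosome biogenesis, known as targets of Myc, 2 were lower, Bop1 (-0.57) and Nop10 (-0.46), and 0 higher, with a median of -0.06. Over the fits that left out 1 array the lysosome list had 1 higher and 1 lower, the glycolysis list 0 to 1 in each direction, and ribosome biogenesis 0 to 1 lower.

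Of 16 interferon-linked genes 3 were higher and 4 lower, beside 8.52% of all genes higher and 9.79% lower, and 2 to 3 were higher and 0 to 1 lower with 1 array left out. Ifitm3, which blocks virus entry, read 9.95 and 9.95 at 24 h, against 8.88 and 8.81 at 0 h, a rise of 1.10 (SE 0.11, adjusted p = 0.00466), and its neighbour Ifitm1, undetected on both 0 h arrays, was at least 2.06-fold higher. Irf1, a transcription factor of the interferon response, rose by 0.64 and Ifi35 fell by 0.69. B2m, the light chain of MHC class I, fell by 0.77 (SE 0.16), and Oasl2 and Rsad2 were undetected on both 24 h arrays and at least 1.14-fold and 1.43-fold lower. Of 21 germ cell genes tested the 3 called higher were Rhox5, Rhox6 and Rhox9, and 2 were lower, Tdrd7 (-0.84) and Rec8, at least 1.41-fold. Of 15 genes of late sperm development 2 were lower, Tsga8 (-1.71) and Spink2, which was undetected on both 24 h arrays. Without 0 h replicate 1 there were 6 germ cell genes higher, and between 2 and 6 with 1 array left out. The promoter of Rhox5, the 1 raised Rhox gene with a listed promoter, has 5 CpG dinucleotides in 300 bases, few beside the median of 20 over all promoters, and 3 CCAAT matches, of which the first 2 overlap on opposite strands.
Rhox5, chrX:37754358-37754657, plus strand: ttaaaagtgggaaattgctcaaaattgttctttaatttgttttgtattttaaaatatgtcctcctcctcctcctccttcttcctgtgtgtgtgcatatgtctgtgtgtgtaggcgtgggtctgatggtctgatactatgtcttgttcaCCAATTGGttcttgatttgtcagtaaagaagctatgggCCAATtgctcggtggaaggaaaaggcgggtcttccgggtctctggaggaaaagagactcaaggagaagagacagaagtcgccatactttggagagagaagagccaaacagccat

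The counts of developmental and chromatin groups stand beside the same 8.52% of all genes higher and 9.79% lower. Of 15 imprinted genes 2 were lower, the growth factor Igf2, which read 10.63 and 10.45 at 24 h, against 11.98 and 11.62 at 0 h (2.39-fold fall, SE 0.15), and Slc22a18 (-1.32), with 2 lower whichever array was left out. Of 11 DNA methylation genes 4 were higher, Apobec1 (0.98), Mbd3, Uhrf1 and Gadd45a (0.43). With 1 array left out 0 to 3 were higher, and Mbd3, Uhrf1 and Gadd45a were called in none of the 4 fits. Of 32 polycomb and histone methylation genes Setd7 (0.71) and Cbx7 (0.64) were higher and the demethylase Kdm4b was lower (-0.94). These shares, 6.25% higher and 3.12% lower, lie under those of all genes. Setd7 and Cbx7 were called in no fit that left out 1 array. Of 20 Hox genes 1 was higher, Hoxd10 (0.56). Gata3, a factor of trophoblast among other tissues, rose by 1.46 (SE 0.14), Evx1, a homeobox factor of the primitive streak, by 1.30 (SE 0.14), and Dab2, an endocytic adaptor of extraembryonic endoderm, by 1.28 (SE 0.16). The chemokine receptor Cxcr4 was undetected on both 24 h arrays and at least 2.25-fold lower, and Foxa1 fell by 0.68. These calls made 2 of 13 trophoblast genes higher, Krt18 being the other, 2 of 10 mesoderm genes, Wnt8a (0.59) being the other, and 1 higher and 2 lower of 12 endoderm genes.

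Levels at 48 h are set beside the earlier times without a test, because each comparison would share its arrays. Rhox6 stood at 9.59 and 8.89 at 0 h, 12.66 and 12.67 at 24 h and 12.21 and 12.44 at 48 h. Dppa3 stood at 7.91 and 5.72 at 0 h, 9.56 and 9.55 at 24 h and 11.30 and 11.53 at 48 h. The 48 h arrays of Rhox6 were near those of 24 h, and those of Dppa3 were higher still. Cdh1 stood at 9.37 and 8.94 at 0 h, 10.31 and 10.47 at 24 h and 11.20 and 11.35 at 48 h. Jun stood at 8.44 and 8.89 at 0 h, 10.00 and 10.14 at 24 h and 8.43 and 8.55 at 48 h, so its 48 h arrays were near those of 0 h. Vim stood at 10.60 and 11.02 at 0 h, 11.45 and 11.76 at 24 h and 8.68 and 8.63 at 48 h, and Sox2 at 7.77 and 7.51 at 0 h, 7.17 and 7.21 at 24 h and 9.57 and 9.92 at 48 h. For Vim the highest and for Sox2 the lowest of the 3 times was 24 h. Igf2 stood at 11.98 and 11.62 at 0 h, 10.63 and 10.45 at 24 h and 13.55 and 13.63 at 48 h, lowest at 24 h as well.

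The genes called here were also looked up in arrays that took no part in the fit. Of the 817 genes called higher 57.9% had a higher mean in the 22 C-class than in the 6 F-class clones, as had 37.7% of the 939 genes called lower and 42.6% of all genes tested. For the ES cell arrays set against F-class clones the shares were 62.5% of genes called higher, 39.7% of genes called lower and 44.7% of all. For iPSC they were 59% of genes called higher, 42.2% of genes called lower and 44.6% of all, and for fibroblasts 42.6%, 42.7% and 42.2%. In C-class, ES and iPS cells the share was larger among genes called higher than among all genes, and in fibroblasts the 3 shares were close. All 4 sets are measured against the same F-class mean, and no test was made. Rhox6 stood at 4.62 to 8.96 in C-class clones, 7.68 and 6.58 in ES cells, 5.77 and 6.38 in iPSC and 4.55 and 4.54 in fibroblasts, all below its 24 h arrays (12.66 and 12.67), while 0 h replicate 1 (9.59) alone of the 0 h pair was also above them. Rhox9 stood at 4.55 to 8.92 in C-class clones, 9.59 and 8.75 in ES cells, 7.73 and 7.95 in iPSC and 4.51 and 4.57 in fibroblasts, below its 24 h arrays (13.56 and 13.51) and below both 0 h arrays (10.87 and 10.27) as well. In the 6 F-class clones of day 16 the medians were 5.50 for Rhox6 and 5.06 for Rhox9, below both 0 h arrays of each gene. For these genes the 0 h cells thus read above the median of those clones, and the cause was not tested.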

How the data were processed

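Illumina MouseRef-8 version 2 beadarrays measured total RNA that was extracted with QIAGEN RNeasy, checked on an Agilent Bioanalyser and labelled with biotin, per the labels' protocols. No source used here gives the labelling protocol, the scanner software or the probe summary. The authors deposited one intensity per probe and array that was not normalized between arrays, and a second table of scaled intensities, used here only as an alternative. Each intensity is accompanied by a detection p-value per probe, per the file headers of the deposited table.

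From these, log2 levels were made for the 51 arrays with limma 3.58.1 (R 4.3.3), whose function neqc subtracts background, adds an offset of 16 and applies quantile normalization. Its negative controls were estimated through the detection p-values. Of 25697 probes 23978 had 1 gene symbol, 1719 none and 0 several in the platform annotation. They named 16593 genes, of which 16582 were matched to RefSeq on GRCm38.p6. The probe with the highest mean stood for a gene. Genes detected (p under 0.05) on at least 2 of the 6 HDACi arrays, 9593 in all, were fitted with lmFit and eBayes over the 6 arrays at 0, 24 and 48 h, which leaves 3 residual degrees of freedom, and p-values were adjusted over all of them by Benjamini-Hochberg. A gene was called at an adjusted p under 0.05. A gene undetected on both arrays of a group and detected on both of the other was given a bound in place of a fitted fold. On each undetected array the gene's own level or the lowest detected level was taken, whichever was higher. The bound was the bright group's mean over the mean of these. The fit was also run on simulated data, whose outcome is not given here, so nothing is drawn from it.

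The 20 largest called rises and falls were named, with every member of the lists of reprogramming factors, naive and other pluripotency genes and deacetylases, and up to 5 called members each way of the other lists, or the 2 largest differences where none was called. Further genes were named after their values were seen. The members, lists and rules were chosen with earlier results of these arrays known. Alternatives were the arrays fitted, background correction, scaling, detection filter, probe choice, variance trend, replicate block and leaving out each array. Same-numbered arrays at 0 and 24 h deviated together with r = 0.258, at 0 and 48 h with r = 0.0942 and at 24 and 48 h with r = 0.0881, and no label says that a number marks a shared culture or day.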

Additional observations from a re-analysis of the deposited data

How the results depend on the processing

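The counts of 817 genes higher and 939 lower at 24 h were kept within 1.5 times by the 4 arrays of the comparison alone (794 and 990), neqc on the 6 arrays (847 and 963), quantile normalization without background correction (1136 and 1270), median scaling (895 and 840), the authors' scaled values (1138 and 1271), detection on all 6 arrays (970 and 866), no detection filter (678 and 772), the mean of all probes (853 and 917) and an intensity trend (1096 and 1208). In the paired fit with a replicate block, the replicate number of the labels, they were 875 and 961, and the labels do not establish that the numbers pair the arrays. They fell to 98 and 114 with the 4 Tet-Myc arrays added, and all 212 of these were among the 1756. Requiring a 2-fold difference left 187 and 271. Leaving out 1 array gave 188 to 433 higher and 256 to 402 lower, the lowest without 24 h replicate 2 and the highest without 0 h replicate 1. The causes were not tested, except that the 2-fold limit lowers a count by construction. No gene called with the 6 arrays turned sign in any of these settings. The difference itself is the same with the 4 arrays alone, the Tet-Myc arrays, the changed detection filters, the intensity trend and the replicate block. Its sign could not turn there, nor where 1 array was left out of groups that do not overlap. The share of higher genes among all calls was 42.3% to 52.8% over the settings, against 46.5%.

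Differences of genes that were not called crossed 0 in some settings. With the mean of all probes they were 0.0563 in Hdac9, 0.0252 in Nkx2-3, -0.0731 in Snai1 and 0.00376 in Tbx3. Under median scaling the log2 differences were 0.035 in Hdac1, 0.0914 in Hdac2, 0.0114 in Hdac3, 0.00901 in Klf5 and 0.061 in Nkx2-3. Over the fits that left out 1 array they ran from -0.0519 to 0.49 in Aurka, from -0.0377 to 2.78 in Cldn4, from -0.21 to 2.72 in Cldn6, from -0.17 to 3.38 in Dnmt3l, from -0.26 to 0.53 in Dppa4, from -2.17 to 4.28 in Dppa5a, from -0.20 to 0.0613 in Hdac1, from -0.11 to 0.0108 in Hdac2, from -0.000228 to 0.0913 in Hdac5, from -0.18 to 0.0926 in Hdac9, from -0.19 to 0.11 in Klf5, from -0.0167 to 0.62 in Nanog, from -0.13 to 0.0532 in Nkx2-3, from -0.40 to 1.38 in Ooep, from -0.17 to 0.20 in Snai1, from -0.18 to 0.00862 in Tbx3 and from -0.70 to 0.11 in Twist2. Of the 224 called genes named, 72 were called in all 4 of these fits. Of 54 genes named that were tested and not called, 23 were called in at least 1 alternative, and only Dppa5a in both directions. Probes near background carry bounds only: 41 genes called higher were undetected on both 0 h arrays and 142 called lower on both 24 h arrays. With 2 arrays a group and 3 residual degrees of freedom small differences could not be resolved.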
